A study of Homo sapiens with 4 samples.

Results

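The genes described here are the components of WNT signaling, a set of 58 of the 19475 gene symbols in the RNA-seq table of SKOV3 cells. They were chosen by symbol, with earlier results of these data known. They hold the 19 WNT ligands, 2 proteins of ligand secretion (PORCN and WLS) and 14 receptors (the FZD family, LRP5, LRP6, ROR1 and ROR2). Also included are 11 secreted antagonists (the DKK and SFRP families, FRZB, WIF1 and NOTUM). The rest are 4 R-spondin receptors and receptor ligases, and 8 transducers and transcription factors. SKOV3 is an established human ovarian cancer cell line, and the labels name no transgene or engineered allele. It was profiled in 4 libraries, 2 of cells on a tissue culture plate (TCP) at day 0 and 2 of tumor spheroids that had formed on polymer X, a thin-film culture coating, at day 8. The labels give serum replacement medium for all 4 libraries, while the study's methods maintain SKOV3 with fetal bovine serum and grow spheroids with serum replacement. The effects of substrate, culture time and, where it differed, medium cannot be told apart. All values come from 1 cell line, and the labels do not say that replicates came from separate cultures, so the p-values measure only the spread between these libraries, which may be technical.

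WNT ligands are lipid-modified secreted proteins. PORCN attaches the lipid, and WLS carries the ligand to the cell surface. There it meets a Frizzled receptor (FZD) with the co-receptor LRP5 or LRP6, the complex that degrades β-catenin (CTNNB1) is held back, and β-catenin enters the nucleus to act with TCF and LEF factors. Other ligands act through Frizzled and ROR receptors without β-catenin. Secreted antagonists limit the signal outside the cell, and AXIN2 and NOTUM are feedback inhibitors that many cells transcribe when β-catenin is active.

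Levels are FPKM, which corrects the number of sequenced tags for transcript length and for library size, so they can be set side by side between genes. The libraries were scaled to between 38405000 and 44920000 tags. Replicates correlated at 0.997 or above across tested genes, libraries of different conditions at 0.862 or below, and replicates of a condition spread wider than counting alone would give. Of 10 markers of ovarian carcinoma, KRT7, KRT8, KRT18, ERBB2 and PAX8 lay above 1 FPKM in every library and EPCAM only on polymer X, while CDH1, KRT19, WT1 and MUC16 lay below it. The summed level of the list was 641 to 654 FPKM on TCP and 1207 to 1258 on polymer X, but without ERBB2 it was 442 and 449 on TCP and 344 and 347 on polymer X, with KRT7, KRT8 and KRT18 lower there in both libraries. Leukocyte markers (4 genes) summed to 0.0960 to 0.160 FPKM on TCP and 0.823 to 0.962 on polymer X, with CD3E at 0, and endothelial markers (3 genes) to 0.00900 to 0.0190 and 0.489 to 0.617. Fibroblast markers (6 genes) summed to 16.8 to 17.6 FPKM on TCP and 76.3 to 86.4 on polymer X, and their part in the results was not tested. In bulk RNA, fewer cells of a type and less RNA per cell cannot be told apart.

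A gene was tested where it reached an FPKM of 1 in at least 2 libraries, and a call of higher or lower needed both an adjusted p under 0.05 and a change of 1 or more in either direction in log2(FPKM + 1). Ligands WNT9A, WNT10A, WNT3A and WNT6, the ligand carrier WLS, the receptors FZD1, FZD8 and FZD6, and the feedback gene AXIN2 were higher on polymer X, and the antagonist DKK1 and the ligand WNT7A were lower. These are 9 and 2 of the 33 members tested, or 27.3% and 6.06%, while 10.7% and 9.45% of all 11964 tested genes were called higher and lower. Of the 33, WNT3A, WNT6, AXIN2 and NOTUM passed the filter through polymer X only and DKK1 through TCP only, so they had to differ, and 3 of the 9 calls are among them. With no filter on low values the calls among the 58 members were also 9 and 2, beside 6.6% and 5.8% of all symbols. At an adjusted p under 0.05 with no minimum fold change, 19 members were higher and 6 lower, where 37.4% and 43.6% of all tested genes were. The median log2 fold change of the 33 was 0.31, and that of all tested genes was -0.06. Permuting 4 libraries exactly gives no two-sided p under 0.333, and each p from here on therefore draws on the spread over all genes in limma.

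**Figure D1:**
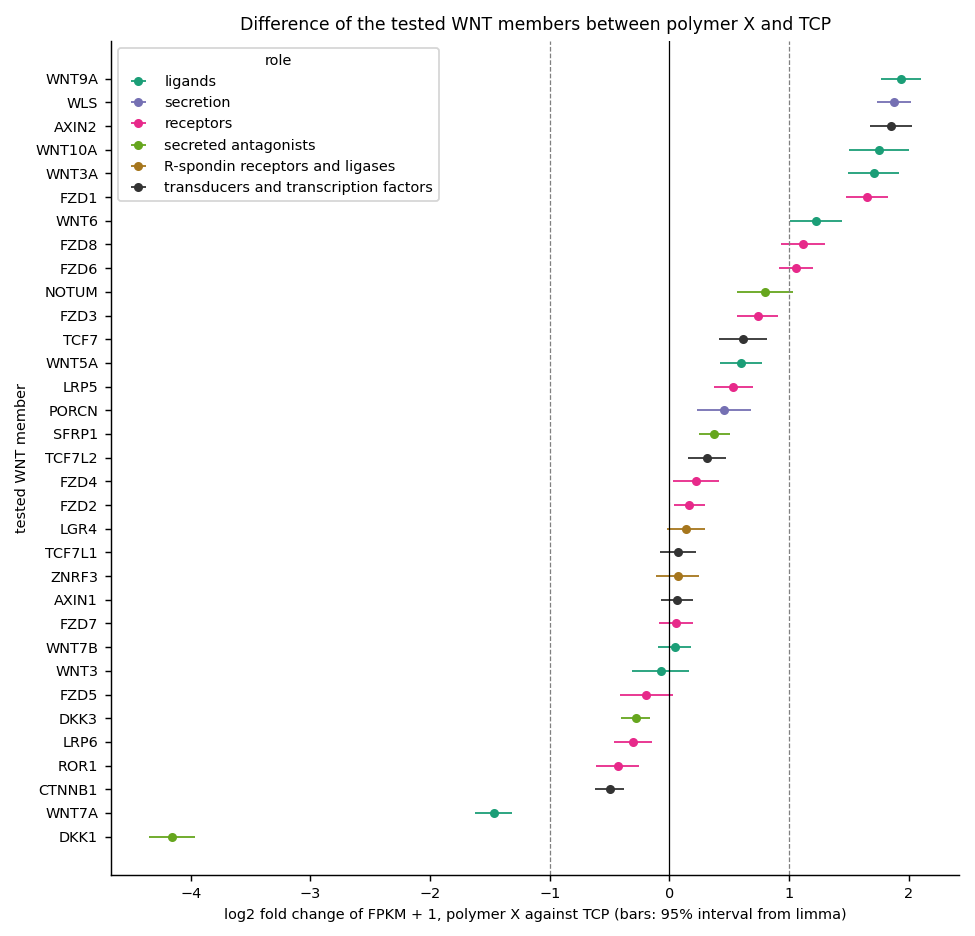
Log2 fold change of FPKM + 1 (polymer X against TCP) of each of the 33 tested members, ordered by size and coloured by role, with 95% intervals from limma; dashed lines mark -1 and 1. DKK1 at -4.16 lies far below the rest, and WNT9A, WLS and AXIN2 lie highest.

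Among the 19 ligands, 8 were tested, 4 rose and 1 fell. WNT9A, a ligand known from joint development, had 1.56 and 1.504 FPKM in the TCP libraries and 8.43 and 8.98 in the polymer X libraries. It rose by a log2 fold change of 1.94 (SE 0.07, adjusted p = 1.9e-08 from limma). Both polymer X libraries stood well above both TCP libraries, and the replicates lay close together. WNT10A, whose loss in people causes defects of teeth and skin appendages, had 1.099 and 1.485 FPKM on TCP and 7.41 and 6.01 on polymer X. Its log2 fold change was 1.75 (SE 0.11, adjusted p = 5.4e-07), or 5.19-fold in mean FPKM.

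WNT3A, the ligand most used to turn on β-catenin in culture, was listed at 0.509 and 0.300 FPKM on TCP and 3.48 and 3.66 on polymer X. This is an 8.83-fold difference of the means, with a log2 fold change of 1.71 (SE 0.09, adjusted p = 2.1e-07). WNT6 was near the limit of detection on TCP, with 2 and 14 tags (0.0310 and 0.184 FPKM), and had 106 and 110 tags on polymer X (1.56 and 1.60 FPKM). Both genes passed the filter through polymer X only, so their groups had to lie apart. WNT6 rose by a log2 fold change of 1.22 (SE 0.10, adjusted p = 2.1e-06), but under quantile normalization it had 0.77 and was not called. The added 1 FPKM shrinks changes of such low genes, and with 0.1 in its place the log2 fold changes were 2.89 for WNT3A and 3.12 for WNT6.

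The 4 ligands that rose form 2 neighbouring pairs in the genome. On the hg19 build, WNT6 (chr2:219724546-219738954) ends 6301 bases before WNT10A (chr2:219745255-219758651), both on the plus strand. WNT9A (chr1:228106357-228135631, minus strand) and WNT3A (chr1:228194723-228248972, plus strand) point away from each other across 59092 bases. The other 2 ligand pairs within 200 kb behaved otherwise, as WNT3 had a log2 fold change of -0.07 beside WNT9B at 0, and WNT10B lay under the limit for testing beside WNT1 at 0. The tested genes within 50 kb of WNT9A and WNT3A were ARF1, C1orf35 and MRPL55, and they had log2 fold changes of -0.14, -0.37 and -0.30. Beside WNT6, no neighbour could be tested, since PRKAG3 was at 0 and CYP27A1 had 0.0110 and 0.107 FPKM on TCP and 0.230 and 0.323 on polymer X. Beside WNT3, the vesicle fusion factor NSF fell by 1.12 on the log2 scale. The pairing of the rising ligands was noticed after their values were seen and was not tested.

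**Figure D2:**
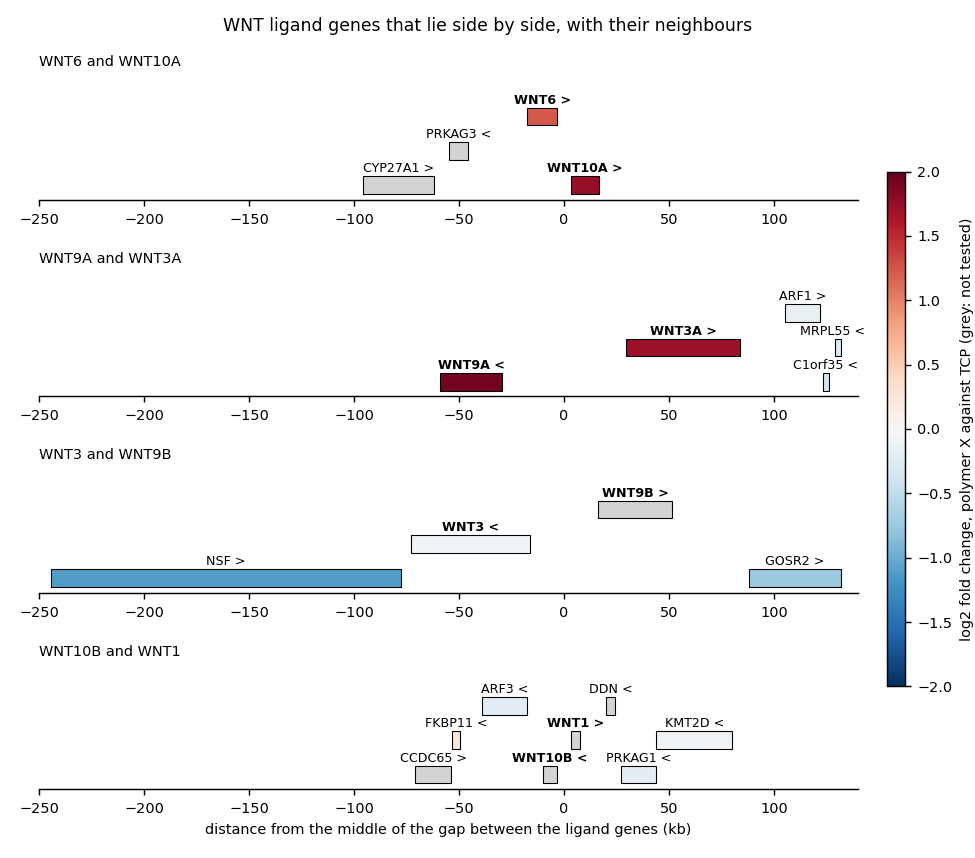
Ligand gene pairs less than 200 kb apart with the genes within 50 kb of them, drawn to scale by distance in kb from the middle of the gap (arrowheads give the strand) and coloured by log2 fold change of FPKM + 1; grey genes were not tested. WNT6, WNT10A, WNT9A and WNT3A are the genes coloured as higher.

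The 250 bases before the start site are shown for these 4 ligands and for the 2 members that fell, since they are the genes on which the results turn. They are from RefSeq on GRCh38.p14, 5′ to 3′ on the strand of the gene, and capitals mark each CG dinucleotide. The windows lie at chr2:218859555-218859804 (plus strand), chr2:218880602-218880851 (plus), chr1:227947933-227948182 (minus), chr1:228006748-228006997 (plus), chr3:13880072-13880321 (minus) and chr10:52314031-52314280 (plus).
WNT6: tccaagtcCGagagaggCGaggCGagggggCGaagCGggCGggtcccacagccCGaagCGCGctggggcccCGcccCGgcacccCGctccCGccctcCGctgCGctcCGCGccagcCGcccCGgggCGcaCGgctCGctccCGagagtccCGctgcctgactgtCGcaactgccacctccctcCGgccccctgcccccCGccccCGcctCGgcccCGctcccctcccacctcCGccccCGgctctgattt
WNT10A: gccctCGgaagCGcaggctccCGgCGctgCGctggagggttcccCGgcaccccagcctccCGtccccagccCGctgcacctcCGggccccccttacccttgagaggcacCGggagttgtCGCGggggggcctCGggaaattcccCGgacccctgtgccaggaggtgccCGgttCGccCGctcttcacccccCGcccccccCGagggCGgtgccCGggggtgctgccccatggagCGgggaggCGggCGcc
WNT9A: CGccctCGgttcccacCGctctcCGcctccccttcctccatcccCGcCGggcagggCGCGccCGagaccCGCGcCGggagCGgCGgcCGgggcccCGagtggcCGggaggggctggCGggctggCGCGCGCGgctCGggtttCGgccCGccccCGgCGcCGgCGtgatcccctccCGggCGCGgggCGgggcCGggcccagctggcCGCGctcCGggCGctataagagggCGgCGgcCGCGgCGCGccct
WNT3A: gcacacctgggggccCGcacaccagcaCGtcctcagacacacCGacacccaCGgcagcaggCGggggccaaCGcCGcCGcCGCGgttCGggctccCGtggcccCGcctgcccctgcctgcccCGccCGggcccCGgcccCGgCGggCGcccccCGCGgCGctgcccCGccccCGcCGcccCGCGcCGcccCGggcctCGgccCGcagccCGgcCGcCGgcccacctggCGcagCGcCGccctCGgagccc
WNT7A: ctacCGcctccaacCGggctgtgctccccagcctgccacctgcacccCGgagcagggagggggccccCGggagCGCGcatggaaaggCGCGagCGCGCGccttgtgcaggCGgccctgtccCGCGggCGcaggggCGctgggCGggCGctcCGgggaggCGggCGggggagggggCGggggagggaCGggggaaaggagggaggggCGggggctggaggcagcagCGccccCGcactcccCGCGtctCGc
DKK1: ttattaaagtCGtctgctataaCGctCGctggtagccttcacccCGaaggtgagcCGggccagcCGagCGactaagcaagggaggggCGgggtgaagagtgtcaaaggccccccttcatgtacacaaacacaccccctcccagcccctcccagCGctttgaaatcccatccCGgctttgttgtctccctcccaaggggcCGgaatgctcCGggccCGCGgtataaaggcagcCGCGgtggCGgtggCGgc

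In the 250 bases shown, WNT9A holds 44 CG dinucleotides, WNT3A 38, WNT6 32, WNT7A 29, WNT10A 24 and DKK1 18. The ligand that fell thus lies within the range of those that rose. With the next 50 bases included, the ligands shown hold 30 to 53 and DKK1 20, beside a median of 25 over windows of tested genes. Of the 58 members, 40 had a RefSeq promoter, with 49 windows of 300 bases (250 before to 50 after the start). At least 20 CG dinucleotides were present in 65.3% of these windows, in 73.7% of the 19 ligand windows and in 66.9% of the windows of all tested genes. The TCF and LEF motif ATCAAAG was searched on both strands and was found in 0 of the 49 windows, against 193 of the 13912 windows of tested genes (1.39%). At a share this low, finding none in so few windows is uninformative. AXIN2 was among the 18 members without a window, and shorter or variant forms of the motif were not searched. The absence says only that these letters are not in these windows.

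WNT7A, a ligand that patterns the female reproductive tract, was the highest ligand on TCP with 13.5 and 14.5 FPKM and had 4.37 and 4.45 FPKM on polymer X. It fell by 1.47 on the log2 scale (SE 0.07, adjusted p = 6.4e-08), which is 3.17-fold in mean FPKM. Its close paralog WNT7B, also a ligand of epithelia, was not called, and it had 11.5 and 12.2 FPKM on TCP and 12.05 and 12.4 on polymer X. The difference of WNT7B was 0.04 on the log2 scale, with a 95% interval of -0.10 to 0.18 (adjusted p = 0.54). WNT3 had 3.07 and 2.41 FPKM on TCP and 2.79 and 2.31 on polymer X, so its groups overlapped (log2 fold change -0.07, 95% interval -0.31 to 0.17, adjusted p = 0.54). WNT5A, the best known ligand of the route without β-catenin, had 2.30 and 2.55 FPKM on TCP and 4.28 and 4.07 on polymer X. Its log2 fold change of 0.60 (adjusted p = 6.7e-05) was under the minimum for a call.

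The makeup of the ligand transcripts differed more than their sum. Summed over 19 ligands, the level was 34.9 and 36.7 FPKM on TCP and 47.7 and 46.8 on polymer X, 1.32-fold in the means, and without WNT7A it was 21.4 and 22.2 against 43.3 and 42.3, 1.97-fold. WNT7A made up 38.6% and 39.6% of the ligand sum on TCP and 9.17% and 9.51% on polymer X. WNT7B went from 33.1% and 33.2% to 25.3% and 26.6% and was the largest ligand share on polymer X. WNT9A went from 4.48% and 4.10% of the sum to 17.7% and 19.2%, and WNT10A from 3.15% and 4.05% to 15.5% and 12.8%.

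**Figure D3:**
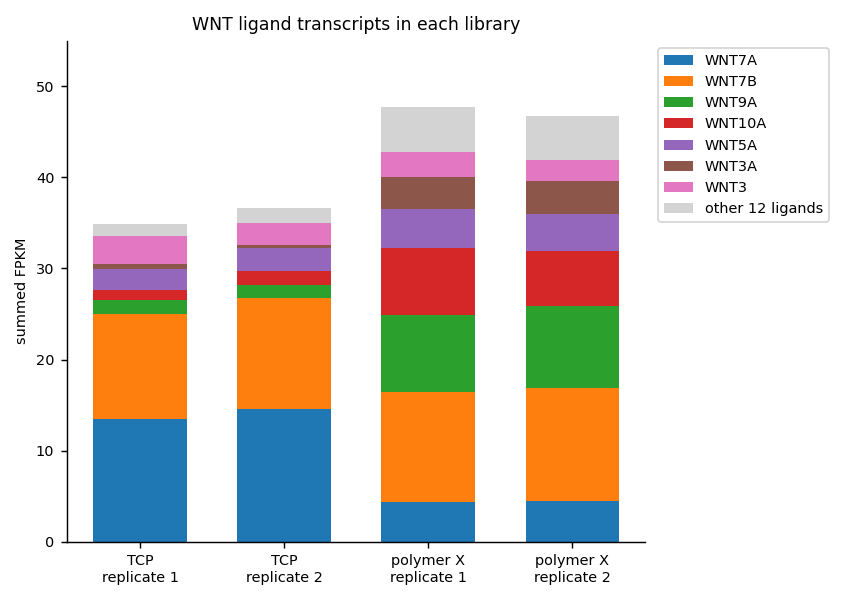
Summed FPKM of the 19 WNT ligands in each of the 4 libraries, with 1 colour for each of 7 ligands and grey for the other 12. WNT7A takes 38.6% and 39.6% of the TCP columns and 9.17% and 9.51% of the polymer X columns, where WNT9A and WNT10A are wider.

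Of the secretion proteins, WLS rose and PORCN was under the minimum fold change. WLS (chr1:68591041-68698229) had 4.25 and 4.12 FPKM on TCP and 17.6 and 18.5 on polymer X. Its log2 fold change was 1.88 (SE 0.06, adjusted p = 1.1e-08), and its 3 transcripts gave 1.88 to 1.89. PORCN had 8.48 and 8.30 FPKM on TCP and 10.5 and 13.4 on polymer X, with no overlap but a wide gap between the polymer X replicates (log2 fold change 0.46, adjusted p = 0.0020).

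In the receptor group 11 of 14 genes were tested, 3 rose and 0 fell. The summed level of the 10 FZD genes was 69.0 and 71.9 FPKM on TCP and 129 and 117 on polymer X. FZD6 was the highest of them in every library, with 25.2 and 25.7 FPKM on TCP and 57.1 and 51.2 on polymer X, and held 36.6% and 35.7% of the FZD sum on TCP and 44.4% and 43.8% on polymer X. It rose by a log2 fold change of 1.06 (SE 0.06, adjusted p = 4.0e-07), just inside the minimum, and without polymer X replicate 1 the value was 0.98 and no longer called. FZD6 is best known from planar cell polarity, the alignment of cells within an epithelium.

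FZD1 (chr7:90893783-90898132), a receptor for β-catenin-activating ligands, had 5.55 and 6.06 FPKM on TCP and 21.8 and 19.0 on polymer X. The rise was the steepest in the family, 3.51-fold in mean FPKM (log2 fold change 1.65, SE 0.08, adjusted p = 8.1e-08). FZD8 (chr10:35927177-35930362) was a low receptor, with 2.68 and 2.81 FPKM on TCP and 7.63 and 6.63 on polymer X (log2 fold change 1.12, SE 0.08, adjusted p = 1.3e-06). FZD3 stood next, at 2.08 and 2.09 FPKM on TCP and 3.99 and 4.28 on polymer X, with a log2 fold change of 0.74 (adjusted p = 1.3e-05) that missed the minimum.

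FZD7 and FZD2, the highest FZD genes on TCP after FZD6, differed little. FZD7 had 10.9 and 11.8 FPKM on TCP and 11.95 and 11.66 on polymer X, a difference of 0.05 on the log2 scale (95% interval -0.09 to 0.20, adjusted p = 0.45). For FZD2 the values were 17.4 and 17.6 FPKM on TCP and 20.3 and 19.3 on polymer X (log2 fold change 0.17, adjusted p = 0.025, and 0.086 to 0.127 without TCP replicate 1, TCP replicate 2 or polymer X replicate 1). FZD5 had 2.94 and 3.53 FPKM on TCP and 2.95 and 2.46 on polymer X, and the groups overlapped (log2 fold change -0.19, adjusted p = 0.094). FZD4 may not be readable on its own, because in GENCODE its exons share 1399 bases with PRSS23 on the opposite strand (log2 fold change -3.25). The counting did not use strand, and how many tags of FZD4 this concerns was not tested. Its values were 1.42 and 1.67 FPKM on TCP and 2.03 and 1.90 on polymer X (log2 fold change 0.22, adjusted p = 0.036, but -0.09 under quantile normalization, and the adjusted p was 0.0543 or more without any library other than TCP replicate 2).

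The co-receptors LRP5 and LRP6 had values of opposite sign, and neither met the minimum fold change. LRP5 had 5.89 and 6.496 FPKM on TCP and 9.75 and 9.06 on polymer X (log2 fold change 0.53, adjusted p = 9.9e-05). LRP6 had 4.78 and 4.81 FPKM on TCP and 3.81 and 3.57 on polymer X (log2 fold change -0.31, adjusted p = 0.0031). ROR1, a receptor kinase for WNT5A, had 2.09 and 2.31 FPKM on TCP and 1.35 and 1.39 on polymer X (log2 fold change -0.43, adjusted p = 0.00077). The groups of these 3 genes did not overlap. ROR2, under the limit for testing, went the other way from ROR1, with 0.057 and 0.098 FPKM on TCP and 0.459 and 0.830 on polymer X.

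DKK1, which binds LRP5 and LRP6 and keeps them from the ligand, showed the largest difference of any member. It had 23.8 and 24.4 FPKM on TCP (1734 and 2082 tags) and 0.514 and 0.311 FPKM on polymer X (39 and 24 tags), so the polymer X libraries held a small remainder. DKK1 (chr10:54073943-54077417) fell by 4.16 on the log2 scale (SE 0.08, adjusted p = 9.2e-10), 58.5-fold in mean FPKM, and stood in place 5 from the lowest among the 11964 tested genes. Its share of the summed antagonist level went from 24.2% and 24.8% to 0.736% and 0.451%. The antagonist sum was 98.4 FPKM in both TCP libraries and 69.8 and 69.0 on polymer X.

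The other tested antagonists were not called. DKK3, a divergent relative that is not known as an LRP6 blocker, was the highest antagonist, with 60.7 and 60.3 FPKM on TCP and 49.9 and 49.1 on polymer X. Its log2 fold change was -0.28 (adjusted p = 0.00076), and under quantile normalization it was 0.05. SFRP1, a decoy that binds ligands through a Frizzled-like domain, had 13.2 and 13.3 FPKM on TCP and 17.4 and 17.6 on polymer X (log2 fold change 0.37, adjusted p = 0.00021). NOTUM, the enzyme that takes the lipid off WNT ligands, was listed at 0.414 and 0.182 FPKM on TCP and 1.247 and 1.249 on polymer X, a 4.19-fold difference of the means. On the scale used here NOTUM had a log2 fold change of 0.80 (adjusted p = 6.7e-05), under the minimum, while with a pseudocount of 0.1 it was 1.82 and called and with quantile normalization 0.21.

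R-spondin receptors and receptor ligases set how many Frizzled receptors stay on the cell, and neither tested gene was called. LGR4 had 11.8 and 11.9 FPKM on TCP and 13.9 and 12.4 on polymer X (log2 fold change 0.14, adjusted p = 0.096). ZNRF3, the ligase that removes Frizzled proteins, had 4.84 and 4.65 FPKM on TCP and 5.38 and 4.69 on polymer X, and its groups overlapped (log2 fold change 0.07, adjusted p = 0.43). LGR5 was under the limit for testing, with 4 and 0 tags on TCP and 2 and 6 on polymer X. The paper reports LGR5 mRNA as higher on polymer X by quantitative RT-PCR, and these libraries hold too few tags to compare.

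Among the transducers and transcription factors only AXIN2 was called. AXIN2 (chr17:63524683-63557740), a scaffold of the β-catenin destruction complex and a widely used readout of β-catenin activity, had 0.771 and 0.818 FPKM on TCP and 5.64 and 5.31 on polymer X. The difference was 6.89-fold in mean FPKM, with a log2 fold change of 1.85 (SE 0.08, adjusted p = 3.5e-08), and the polymer X libraries held 952 and 912 tags against 125 and 155 on TCP. Of its exon bases, 1316 are shared with the protein-coding gene AC004805.1 on the same strand in GENCODE, and tags there cannot be told apart. Its paralog AXIN1 was not called and had 17.2 and 17.7 FPKM on TCP and 17.8 and 18.9 on polymer X (log2 fold change 0.06, 95% interval -0.07 to 0.20, adjusted p = 0.34). CTNNB1, which encodes β-catenin itself, was the highest member on TCP with 65.6 and 65.2 FPKM and had 47.0 and 45.0 FPKM on polymer X. That is a log2 fold change of -0.50 (adjusted p = 2.0e-05), under the minimum, although the groups lay apart. The study also grew SKOV3 cells carrying a WNT reporter on polymer X for 8 days, and its text names GFP signal for the STAT3 reporter only. The RNA level of AXIN2 does not measure β-catenin activity directly.

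The log2 fold changes of the TCF genes were above 0 and under the minimum. TCF7 had 1.99 and 2.48 FPKM on TCP and 3.90 and 3.98 on polymer X (log2 fold change 0.61, adjusted p = 0.00015), and 210 of its exon bases are shared with SKP1 on the opposite strand. For TCF7L2 the levels were 5.22 and 5.70 FPKM on TCP and 7.19 and 6.86 on polymer X (log2 fold change 0.31, adjusted p = 0.0026), and its 15 transcripts gave 0.28 to 0.33. TCF7L1 had 8.66 and 7.98 FPKM on TCP and 8.67 and 8.94 on polymer X (log2 fold change 0.07, adjusted p = 0.33).

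**Figure D4:**
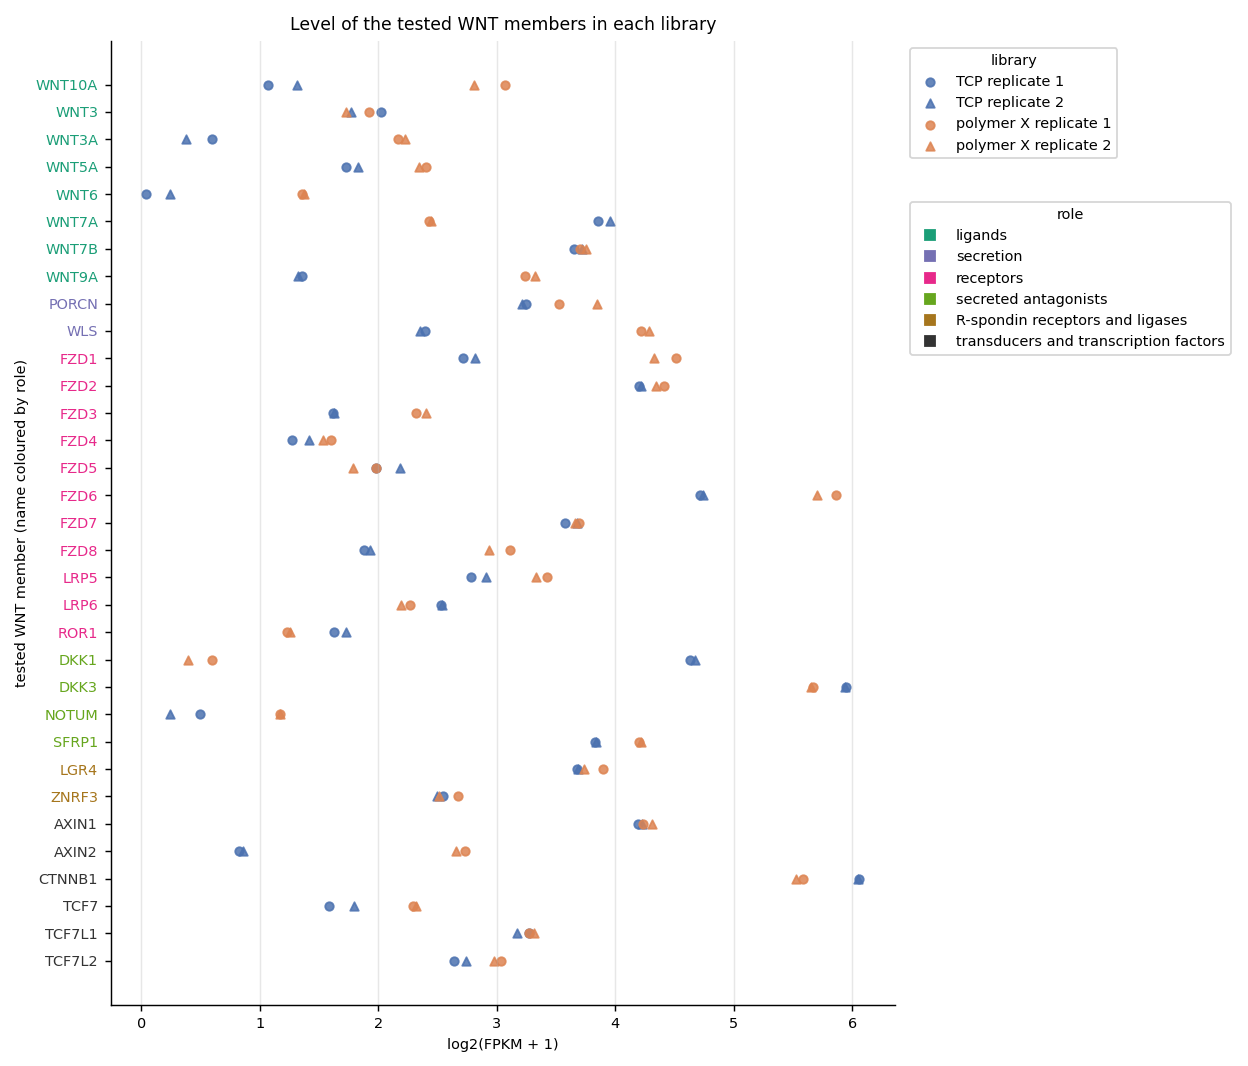
Level of the 33 tested members as log2(FPKM + 1) in each library, grouped by role (colour of the name); blue marks TCP, orange polymer X, circles replicate 1 and triangles replicate 2. Replicates of a condition lie close together, and the gap between conditions is widest for DKK1.

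The remaining 25 members did not reach the limit for testing. WNT1, WNT2, WNT8A, WNT9B, FZD10 and DKK4 were at 0 in all 4 libraries, which with 3 tags as the limit allows up to 0.0204 to 0.0962 FPKM depending on transcript length and library. The other 19 reached at most 1.07 FPKM. In 11 of these 19 (57.9%) both polymer X libraries lay above both TCP libraries, and in 1 gene, WNT10B, both lay below. Across all untested genes with any tag the shares were 43.2% and 12.1%. Among the 11, DKK2 and SFRP2 had at most 2 tags in every library, so their order is not a measured difference. By mean over the 4 libraries, the highest ligand was WNT10B, with 0.661 and 0.801 FPKM on TCP and 0.582 and 0.510 on polymer X. The highest single value was that of WNT11, a ligand of cell movement in the embryo, with 0.203 and 0.209 FPKM on TCP and 1.07 and 0.768 on polymer X. Of the receptors FZD9 had the highest mean, with 0.757 and 0.657 FPKM on TCP and 0.961 and 0.515 on polymer X, which overlapped.

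Among the antagonists WIF1, which binds ligands directly, had the highest mean, at 0.175 and 0.110 FPKM on TCP and 0.325 and 0.309 on polymer X. NKD1, a feedback inhibitor that acts on Dishevelled, had 0.676 and 0.550 FPKM on TCP and 0.683 and 0.768 on polymer X. RNF43, the ligase related to ZNRF3, was near the limit of detection with 1 and 2 tags on TCP and 6 and 10 on polymer X. Both polymer X libraries lay above both TCP libraries, but at so few tags RNF43 was not tested and the size of its difference is uncertain.

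**Figure D5:**
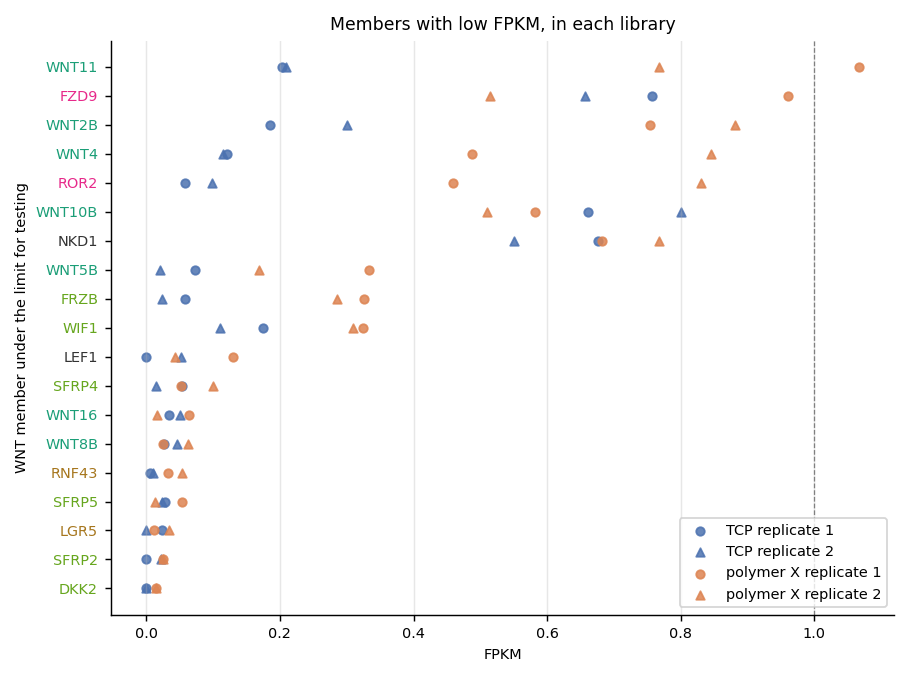
FPKM in each library of the 19 members that had tags but were under the limit for testing (dashed line at 1 FPKM), with the same colours and shapes as for the tested members. WNT11 reaches 1.07 on polymer X replicate 1, and WNT10B is the gene with both polymer X libraries below both TCP libraries.

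Around these members a wider list of 85 other genes of WNT signaling was examined, of which 62 were tested (4 of them through 1 group only). In this list 6 genes rose (9.68%) and 5 fell (8.06%), close to the 10.7% and 9.45% of all tested genes, and the median log2 fold change was 0.06. None of the 18 tested cytoplasmic components was called. At an adjusted p under 0.05 with no minimum, 7 were higher and 8 lower, close to the 37.4% and 43.6% of all tested genes. Of 12 tested genes known as targets of β-catenin, 2 were higher (16.7%) and 4 lower (33.3%). The 2 higher ones passed the filter through polymer X only, as AXIN2 did, so they had to differ. A link between these targets and the rise of AXIN2 was not tested.

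MMP7, a matrix protease and a target gene, had 0.280 and 0.120 FPKM on TCP and 13.7 and 12.2 on polymer X (log2 fold change 3.54). BMP4, a growth factor of the TGF-β family listed among the targets, rose from 0.841 and 0.853 FPKM to 12.2 and 14.3 (log2 fold change 2.94). Both rose from levels under 1 FPKM. PRICKLE4, of the planar cell polarity family, had 2.13 and 1.33 FPKM on TCP and 12.002 and 13.5 on polymer X (log2 fold change 2.35), and its exons share 2468 bases with the protein-coding gene AL365205.1 on the same strand and 50 with FRS3 on the opposite strand, so its value is uncertain. HBP1, a repressor of TCF-driven genes, had 4.27 and 4.78 FPKM on TCP and 17.9 and 16.5 on polymer X (log2 fold change 1.72), and 975 of its exon bases are shared with COG5 on the opposite strand, whose log2 fold change was 0.38. TMEM67, a ciliary protein with a Frizzled-like domain, had 2.01 and 1.86 FPKM on TCP and 5.91 and 5.72 on polymer X (log2 fold change 1.21). The remaining gene called higher was the corepressor TLE2 (log2 fold change 1.00), just inside the minimum.

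Of the 5 genes called lower, 4 were targets and VANGL1 belonged to planar cell polarity. MYC, a transcription factor of cell growth, had 19.7 and 20.4 FPKM on TCP and 1.99 and 2.16 on polymer X, and fell by 2.78 on the log2 scale. BIRC5 (survivin), which acts in mitosis and against apoptosis, fell by 2.60, from 77.3 and 73.3 FPKM to 10.9 and 12.2. The AP-1 gene FOSL1 fell by 1.99, from 98.3 and 104.9 FPKM to 24.8 and 25.0. For JUN, another AP-1 gene, the levels were 257 and 256 FPKM on TCP and 115 and 124 on polymer X (log2 fold change -1.09, but -0.77 and not called under quantile normalization). VANGL1, a membrane protein of planar cell polarity, fell by 1.21 on the log2 scale, from 11.1 and 11.2 FPKM to 4.25 and 4.31. The groups of MYC, BIRC5 and FOSL1 did not overlap. AXIN2, MMP7 and BMP4 passed the filter through polymer X only, so their groups had to lie apart.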

How the data were processed

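The authors deposited FPKM values of RNA-seq for 50078 RefSeq transcripts on hg19, counted with HOMER on exons of both strands. STAR 2.4.0, HOMER and DESeq are named in the submitters' processing notes. The labels describe a directional library kit, but counting did not use strand: 14 members, 3 of them called (DKK1, FZD6 and WLS), have exons that share bases with a gene on the opposite strand in GENCODE, and AXIN2, FZD8, PRICKLE4 and RNF43 share them with another gene on the same strand. The number of tags each library was scaled to was read from the steps between low values, and 100% of the 1138 to 1209 values used per library came within 0.1 of whole tags, and 3 tags of a transcript of 2000 bases are 0.0334 to 0.0391 FPKM.

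For each symbol the transcript with the highest mean was used. Where 2 or more libraries reached an FPKM of 1, the gene entered a limma fit (version 3.58.1, R 4.3.3) of log2(FPKM + 1) that used the mean-variance trend, and p-values of 11964 genes were adjusted by Benjamini-Hochberg. A fold change on this scale understates that of low genes. The text names all tested members, the highest untested member of each role group and the 5 called genes of the wider list with the largest change in each direction. Other names were chosen after their values were seen. The members and the lists, written from general knowledge, were chosen with earlier results of these data known. The procedure was tested on simulated data. Alternatives were another pseudocount (0.1), other filters, quantile and median scaling, summed transcripts, no variance trend, other fold minimums, the replicate block and each library left out. Same-numbered replicates were not treated as pairs, since no label ties them.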

Additional observations from a re-analysis of the deposited data

How the results depend on the processing

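Of 500 alternative values for 43 named genes, 490 kept their sign and their status as called or not called, 3 lost the call, 1 gained it and 6 changed sign. The adjusted p alone crossed 0.05 in 20 values of 9 genes, none of them among the calls in the report: it rose above in 12 (FZD4, FZD2, PORCN with no filter, DKK3 and NOTUM under quantile normalization) and fell below in 8 (FZD5, LGR4, and WNT3 and AXIN1 under quantile normalization). Calls were lost by WNT6 (0.77) and JUN (-0.77) under quantile normalization and by FZD6 (0.98) without polymer X replicate 1, and NOTUM gained one (1.82) with a pseudocount of 0.1. Sign changed under quantile normalization for FZD4 (-0.087), DKK3 (0.045) and ZNRF3 (-0.024). It also changed for ZNRF3 without polymer X replicate 1 (-0.013, in a leave-one-out range up to 0.15) and for WNT3 without TCP replicate 1 (0.054) or polymer X replicate 2 (0.024), in a range down to -0.20. The cause was not tested. The median log2 fold change of the members was 0.078 with no filter and 0.15 above a mean FPKM of 5, where 4 members and 702 genes in all were higher, since fewer genes were tested. With no minimum fold change, 19 members were higher and 6 lower, 29 and 23 of the wider list, and 4477 and 5212 of all genes. With a minimum log2 fold change of 2 the counts were 0 and 1, 3 and 2, and 281 and 150. Leaving out 1 library at a time, the members numbered 8 to 9 higher and 2 lower, the wider list 5 to 7 and 5, and all genes 1289 to 1325 and 1053 to 1234, and the median lay between 0.26 and 0.37. In these fits 1 library stands alone and is assumed to vary like the others. Deviations of same-numbered libraries correlated at 0.09 over 11964 genes, and the replicate block left the counts at 9 and 2, 6 and 5, and 1285 and 1131, with a median of 0.31.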

Other observations

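Several marker genes of other cell types had values near 0 on TCP and low values on polymer X. PECAM1, an endothelial adhesion molecule, was listed at 0 in both TCP libraries and had 0.573 and 0.458 FPKM on polymer X. PTPRC, the leukocyte antigen CD45, had 0.00500 and 0 FPKM on TCP and 0.468 and 0.530 on polymer X. The matrix proteoglycans of fibroblasts stood higher, with LUM at 0.0740 and 0.232 FPKM on TCP and 24.1 and 19.6 on polymer X, and DCN at 0.0250 and 0 against 7.26 and 6.20. COL1A1 went the other way, with 8.21 and 8.48 FPKM on TCP and 3.81 and 3.77 on polymer X, while COL1A2 had 8.41 and 8.75 against 45.8 and 42.2. In the carcinoma list ERBB2 had 198 and 206 FPKM on TCP and 913 and 860 on polymer X, and KRT8 had 262 and 269 against 146 and 143.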
